A study of Mus musculus with 33 samples.

Results

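The genes described here encode 10 parts of the Polycomb system: Ezh1, Ezh2, Eed, Suz12, Jarid2, Ring1, Rnf2, Bmi1, Cbx7 and Kdm6b. Their probes were found by gene name, through the annotation of the array or an older synonym. The list itself was drawn up with earlier results of these data known. Agilent probes for them numbered 16 of 41174, and 15 passed the filter on dim probes. All 10 genes were measured, among 15808 genes in all. A level is log2 of a probe's processed signal over the 75th percentile of its array, and the probe with the highest mean stands for its gene. Values on a common floor of -3.43 have no order among themselves. Signals of different probes are not compared with each other, because each probe has its own response.

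Each of 33 arrays held amplified RNA of 1 mouse blastocyst of the strain (C57BL/6NxDBA/2)F1. Clones were embryos made by transfer of a somatic nucleus into an oocyte, and they came from 6 kinds of donor: male Purkinje cells (n = 4), male CA1 pyramidal cells (n = 4), neonatal Sertoli cells (male, n = 4), female Purkinje cells (n = 4), female CA1 pyramidal cells (n = 4) and cumulus cells (female, n = 3). Purkinje cells are output neurons of the cerebellum, CA1 cells are neurons of the hippocampus, Sertoli cells nurse germ cells in the testis, and cumulus cells surround the oocyte. Every clone group had been exposed to 50 nM trichostatin A (TSA), which blocks histone deacetylases: 1 h during activation, 5 h together with cytochalasin B and 2 h afterwards. Blastocysts from in vitro fertilisation (IVF), male (n = 7) and female (n = 3), were the controls and had no TSA per the labels. Culture lasted 96 h. Cloning and TSA therefore cannot be told apart in any comparison of clones with IVF. The labels name no donor animal or transfer session behind a blastocyst, so each p-value covers the spread between these embryos and their arrays alone, part of which may be technical.

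Polycomb proteins keep developmental genes silent by marking chromatin. Polycomb repressive complex 2 (PRC2) methylates lysine 27 of histone H3 through Ezh2 or its relative Ezh1, which need Eed and Suz12 to work, and Jarid2 helps bring the complex to its sites. Polycomb repressive complex 1 (PRC1) attaches ubiquitin to histone H2A through Rnf2 (also called Ring1B) or Ring1, which pair with Bmi1 or a relative, and Cbx proteins such as Cbx7 read the PRC2 mark. Kdm6b removes methyl groups from the same lysine. In mouse embryos the mark laid down in the oocyte also silences the maternal copy of a small set of imprinted genes, Xist among them.

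The 13 IVF and cumulus arrays had been read with scanner G2505B and the 20 other arrays with G2505C, and each clone group lay on a slide of its own. Donor and slide thus cannot be told apart against IVF in any clone group, and donor and scanner cannot in the 5 groups other than cumulus clones, whose arrays shared scanner and software version with IVF. Processed signals at or below 0 made up 15.7 to 23.3% on the IVF and cumulus arrays and 0% on every other array. The scanner sets thus differ for dim signals, and the part of this in levels near the floor was not tested. The 75th percentile of the processed signal, a measure of array brightness, was 230 to 659 on male Purkinje and 354 to 838 on female Purkinje arrays, against 904 to 1466 on all others. Pairs of arrays of 1 group (57 in all) had r values of 0.93 to 0.983 across genes. All 9 trophectoderm markers looked up were above the floor on most arrays of every group. Summed over the 7 measured markers of inner cell mass and epiblast, multiples of the 75th percentile ranged from 104 to 177 in male Purkinje clones, 85.7 to 116 in male CA1 clones and 73.2 to 130 in Sertoli clones, against 72 to 82 in male IVF. The same sum was 102 to 182 in female Purkinje clones, 62.1 to 92 in female CA1 clones and 97.3 to 107 in cumulus clones, against 66.6 to 96.4 in female IVF. The single markers went both ways. Zfp42 averaged 6.78 in male Purkinje clones, against 5.1 in male IVF, and Nanog, Sox2 and Esrrb were also higher there. Pou5f1 (3.78 against 4.31), Klf4 (2.83 against 3.56) and Tdgf1 (0.34 against 1.68) were lower in the same comparison. Of the neuronal markers, 4 of 8 were measured, and their summed signal was 1.44 to 3.52 in male Purkinje clones, against 2.6 to 10.4 in male IVF. Sertoli markers (4 of 6 measured) summed to 99.9 to 169 in Sertoli clones and 58.6 to 285 in male Purkinje clones, against 0.816 to 9.3 in male IVF. Of these only Rhox5, an X-linked homeobox gene, was high, with a level of 7.02 in Sertoli, 7.17 in male Purkinje and 7.10 in male CA1 clones, against 1.00 in male IVF. Clu averaged -0.72 in Sertoli and -2.97 in male Purkinje clones, against -1.74 in male IVF, and Gata1 was on the floor in all 4 Sertoli clones. The part of these markers in the results was not tested. An array of a whole embryo cannot tell fewer cells of a type from less RNA per cell.

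The promoters of the 5 genes that passed the test against IVF in at least 2 clone groups are shown because these genes moved together or apart in the same embryos. Each line gives the 250 bases before the RefSeq start, 5′ to 3′ along the gene, on build GRCm38.p6. Capitals mark matches, on either strand, to any of 10 short motifs searched.
Suz12 (chr11:79992856-79993105, plus strand): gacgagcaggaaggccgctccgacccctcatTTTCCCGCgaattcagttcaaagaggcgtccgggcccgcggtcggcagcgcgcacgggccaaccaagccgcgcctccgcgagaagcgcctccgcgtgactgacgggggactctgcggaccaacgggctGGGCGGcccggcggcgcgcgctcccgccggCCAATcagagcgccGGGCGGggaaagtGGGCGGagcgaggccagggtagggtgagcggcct
Eed (chr7:89980977-89981226, minus strand): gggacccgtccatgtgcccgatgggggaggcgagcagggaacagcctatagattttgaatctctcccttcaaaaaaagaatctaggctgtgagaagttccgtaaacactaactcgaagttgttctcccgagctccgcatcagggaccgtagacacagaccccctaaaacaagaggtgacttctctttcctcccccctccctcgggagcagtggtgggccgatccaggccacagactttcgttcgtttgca
Ring1 (chr17:34024681-34024930, minus strand): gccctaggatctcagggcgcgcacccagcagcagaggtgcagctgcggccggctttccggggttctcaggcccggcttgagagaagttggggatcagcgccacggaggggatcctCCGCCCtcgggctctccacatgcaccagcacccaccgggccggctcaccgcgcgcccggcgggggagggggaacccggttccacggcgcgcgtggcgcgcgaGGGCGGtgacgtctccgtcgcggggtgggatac
Rnf2 (chr1:151500992-151501241, minus strand): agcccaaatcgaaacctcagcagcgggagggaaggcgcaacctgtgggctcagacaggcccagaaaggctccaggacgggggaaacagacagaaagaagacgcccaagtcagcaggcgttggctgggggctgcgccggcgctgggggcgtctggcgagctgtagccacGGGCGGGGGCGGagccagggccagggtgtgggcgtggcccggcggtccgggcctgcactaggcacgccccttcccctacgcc
Bmi1 (chr2:18676768-18677017, plus strand): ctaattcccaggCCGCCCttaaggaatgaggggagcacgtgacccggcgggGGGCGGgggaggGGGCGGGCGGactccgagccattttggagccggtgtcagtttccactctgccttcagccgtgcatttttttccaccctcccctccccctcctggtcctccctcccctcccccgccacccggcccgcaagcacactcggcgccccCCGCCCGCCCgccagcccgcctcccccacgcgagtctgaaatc
The motifs were 3 of E2F type (TTTCGCGC, TTTGGCGC and TTTCCCGC), NRF1 (CGCATGCG), ETS (CCGGAAGT), SP1 (GGGCGG), CRE (TGACGTCA), YY1 (AAGATGGCG), the CCAAT box (CCAAT) and the TATA box (TATAAA). Some of the SP1 matches in Bmi1 overlap, and the pair in Rnf2 abut. Of 32841 RefSeq promoters of this length, 32.7% held GGGCGG, 33.9% CCAAT and 0.895% TTTCCCGC. The Bmi1 promoter held GGGCGG 6 times, Suz12 3 times, and Ring1 and Rnf2 2 times each. Suz12 also held TTTCCCGC and CCAAT, and Eed held none of the 10. The Suz12 window had 37 CpG dinucleotides, which 2.2% of promoters equalled or exceeded, and Ring1 had 30 (5.94%). Bmi1 had 21, Rnf2 20 and Eed 12, against a median of 6 over all promoters. Of the 10 members, 9 had an entry in the table, and Kdm6b is named only.

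Against IVF of the same sex, genes of PRC1 and PRC2 moved in both directions. Bmi1, Suz12 and Ring1 each passed the test in 4 of the 6 clone groups, Eed and Rnf2 in 2, and Ezh2 in 1. Bmi1 rose each time, Ring1 fell each time, Suz12 rose in 3 groups and fell in male CA1 clones, and Eed fell in CA1 clones of both sexes. Ezh1, Jarid2, Cbx7 and Kdm6b passed in none by the probe that stands for the gene.

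In male Purkinje clones 4 members were higher (Ezh2, Suz12, Rnf2 and Bmi1), where 18.3% of all genes were higher, and 1 was lower (Ring1), where 10.3% were lower. In male CA1 clones 0 were higher (background 17.7%) and 3 lower (Eed, Suz12 and Ring1, background 13.3%). Bmi1 and Cbx7 also had an unadjusted p under 0.05 there. Sertoli clones had 3 higher members (Suz12, Rnf2 and Bmi1, background 15%) and 1 lower (Ring1, background 10.7%). Among females, Purkinje clones had 2 higher (Suz12 and Bmi1, background 13%) and 1 lower (Ring1, background 6.67%). Female CA1 clones had 1 higher (Bmi1, background 8.41%) and 1 lower (Eed, background 4.89%). Cumulus clones had 0 in either direction by limma, where 1.95% of genes were higher and 3.35% lower. At an unadjusted p under 0.05 there were 3 (Suz12, Bmi1 and Cbx7), and limma with array weights called 1, Bmi1. With 10 members, a count of 1 is 10%, so the single calls lie near the background and the 4 higher members of male Purkinje clones above it. The members were chosen with earlier results known, so that count is a description and no sign of enrichment. Without the 5 Purkinje arrays whose 75th percentile lay under 500, Ezh2, Suz12 and Rnf2 did not pass in male Purkinje clones.

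**Figure D1:**
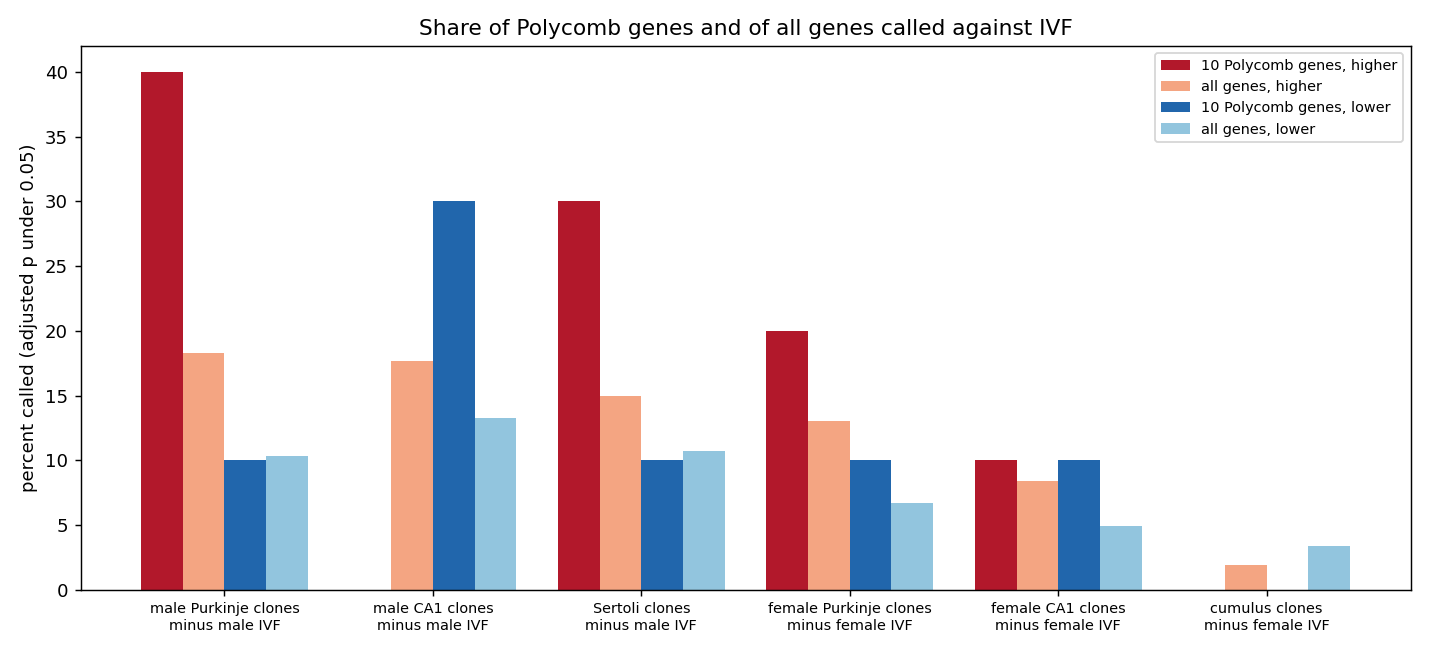
Percent of the 10 Polycomb genes (dark bars) and of all 15808 genes (pale bars) that were called higher (red) or lower (blue) in each clone group relative to IVF of the same sex, at an adjusted p under 0.05. In male Purkinje clones 4 of the 10 were higher where 18.3% of all genes were, and in male CA1 clones 3 were lower where 13.3% were.

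Among PRC2 genes, Suz12, the subunit that holds the complex together, had the widest range of group means of the 10, from 4.44 in male CA1 clones to 6.59 in female Purkinje clones. Its levels were 5.55, 6.32, 7.04 and 7.08 in male Purkinje clones, against a lowest of 4.98, a median of 5.52 and a highest of 6.01 in male IVF. In the 4 male CA1 clones they were 4.80, 4.98, 4.45 and 3.51, and in the 4 Sertoli clones 6.16, 6.47, 5.95 and 6.67. In all, 3 male Purkinje clones and 3 Sertoli clones lay above every male IVF embryo, and 3 male CA1 clones lay below every one, with the fourth level with the lowest. The change was 1.01 (95% interval 0.41 to 1.61, adjusted p = 0.01031) in male Purkinje clones, 0.83 (0.23 to 1.42, adjusted p = 0.03653) in Sertoli clones and -1.05 (-1.64 to -0.45, adjusted p = 0.007122) in male CA1 clones. The Purkinje call is lost without replicate 3 (0.83, adjusted p = 0.06219) or 4 (0.82, adjusted p = 0.06491), and the CA1 call without replicate 4 (-0.74, adjusted p = 0.06807). The Sertoli call is lost without IVF replicate 1 (0.75, adjusted p = 0.06913) or 6 (0.74, adjusted p = 0.07322), or without Sertoli replicate 1 (0.88, adjusted p = 0.05666), 2 (0.77, adjusted p = 0.0954) or 4 (0.71, adjusted p = 0.1165).

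In females, Suz12 was 5.70, 6.91, 6.95 and 6.81 in Purkinje clones, 6.28, 5.78, 6.52 and 5.97 in CA1 clones and 6.50, 6.19 and 5.85 in cumulus clones, against 5.29, 5.24 and 5.38 in IVF. All 11 female clones exceeded all 3 female IVF embryos. Only the Purkinje change passed, at 1.29 (0.56 to 2.02, adjusted p = 0.01144), with 0.84 (adjusted p = 0.12) in CA1 and 0.88 (adjusted p = 0.1756) in cumulus clones. The Purkinje call is lost with array-median scaling (0.68, adjusted p = 0.1975), quantile normalization (0.69, adjusted p = 0.1435), normexp (0.85, adjusted p = 0.276) or only the groups compared (1.29, adjusted p = 0.0626). A second, dimmer Suz12 probe gave another picture for male CA1 clones. It read -1.20, -1.66, -2.13 and -2.20 in male CA1 clones, against -3.43 to -1.30 with a median of -2.30 in male IVF, a change of 0.71 (-0.35 to 1.77, adjusted p = 0.3312). The groups overlapped and the sign was opposite to the brighter probe's, so the fall of Suz12 in male CA1 clones is uncertain. By this probe Suz12 rose in male Purkinje clones (1.41, adjusted p = 0.04407). It did not pass in Sertoli (0.80, adjusted p = 0.2777), female Purkinje (1.67, adjusted p = 0.068), female CA1 (0.70, adjusted p = 0.5507) or cumulus clones (-0.31, adjusted p = 0.9105).

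Ezh2, the methyltransferase of PRC2, was 3.11, 3.03, 3.56 and 3.32 in male Purkinje clones, against 1.99 to 3.24 with a median of 2.91 in male IVF. The groups overlapped, and 2 of the 4 clones exceeded every IVF embryo. The change was 0.64 (0.18 to 1.09, adjusted p = 0.03196). It did not pass without Purkinje replicate 3 (0.54, adjusted p = 0.1231) or 4 (0.62, adjusted p = 0.08009), nor without male IVF replicate 1 (0.53, adjusted p = 0.07124), 6 (0.54, adjusted p = 0.0703) or 7 (0.54, adjusted p = 0.07078). In the 5 other clone groups the change of Ezh2 ranged from -0.34 in male CA1 to 0.34 in Sertoli clones, and no interval excluded 0.

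Eed, which binds the methyl mark and switches the enzyme on, fell in CA1 clones. Levels were 1.53, 1.09, 1.07 and 0.67 in male CA1 clones, against 1.60 to 2.77 with a median of 2.05 in male IVF. They were 1.22, 1.36, 1.57 and 0.99 in female CA1 clones, against 2.57, 2.30 and 1.78 in female IVF. In both sexes every CA1 clone lay below every IVF embryo. The change was -1.04 (-1.47 to -0.60, adjusted p = 0.0004696) in males and -0.93 (-1.47 to -0.40, adjusted p = 0.01673) in females. The female call is lost without IVF replicate 1 (-0.76, adjusted p = 0.09777) or 2 (-0.89, adjusted p = 0.05921). Eed did not pass in Sertoli (-0.48, adjusted p = 0.09724), male Purkinje (-0.14), female Purkinje (-0.10) or cumulus clones (-0.27).

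Jarid2, the accessory subunit, was 6.52, 5.85, 6.62 and 6.49 in male Purkinje clones, against 6.35, 5.69, 5.62 and 5.74 in the 4 male IVF arrays with a value. On male IVF replicates 1, 6 and 7 its brightest probe was marked as an outlier by the software and dropped, so those arrays do not enter its fit. The change was 0.52 (0.11 to 0.93, adjusted p = 0.05109) in male and 0.58 (0.14 to 1.02, adjusted p = 0.05607) in female Purkinje clones. Both had a negative sign after normexp (-0.22 and -0.18). The other kept Jarid2 probe had values on all 7 male IVF arrays. By that probe the gene was higher in male Purkinje clones, at 4.44, 4.59, 4.10 and 3.91 against 2.34 to 3.74 in male IVF, with no overlap (1.12, 0.62 to 1.63, adjusted p = 0.001316). It was also higher in Sertoli (0.84, adjusted p = 0.01362) and female CA1 clones (0.90, adjusted p = 0.04848). Ezh1, the second methyltransferase, lay between -3.43 and -1.82 on all arrays, at or just above the floor, and its changes ran from -0.43 to 0.17.

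**Figure D2:**
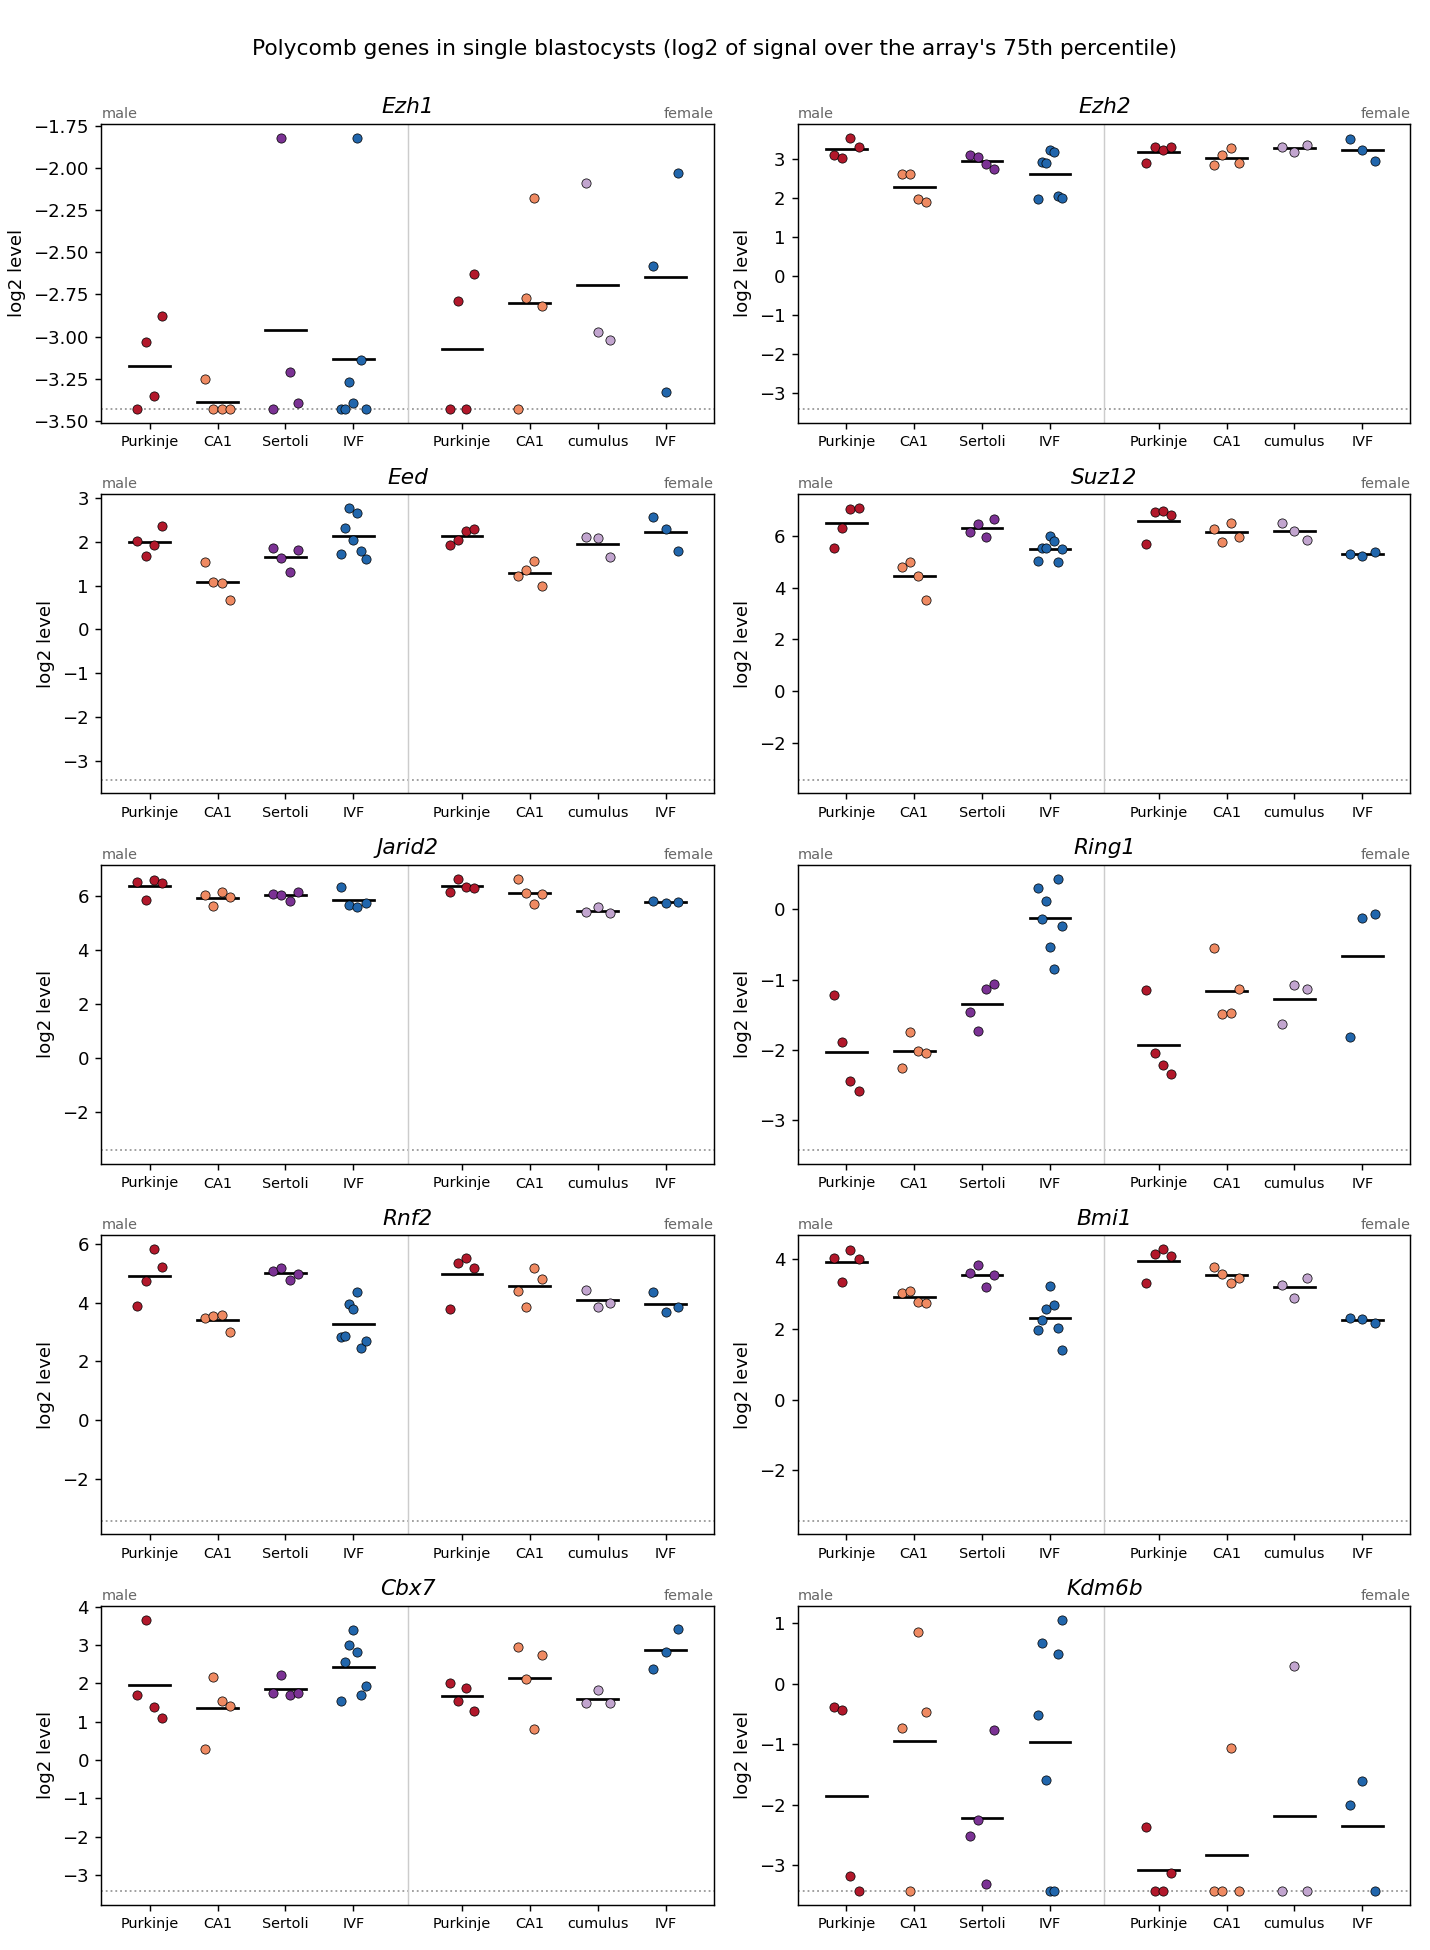
Level of the 10 Polycomb genes (log2 of signal over the 75th percentile of the array, vertical axes of their own) in each of the 8 groups, males on the left and females on the right of each panel, with 1 point per blastocyst, a bar at the group mean and a dotted line at the floor of -3.43. Bmi1 lies higher and Ring1 lower in male Purkinje clones than in any male IVF embryo, and the means of Eed are lowest in CA1 clones of both sexes.

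Among PRC1 genes, Bmi1, the partner that activates the ubiquitin ligase, rose in both Purkinje groups, Sertoli and female CA1 clones. It was 4.01, 3.33, 4.25 and 3.99 in male Purkinje clones and 3.58, 3.82, 3.20 and 3.52 in Sertoli clones, against 1.40 to 3.21 with a median of 2.25 in male IVF. Every male Purkinje clone exceeded every male IVF embryo, and 1 Sertoli clone fell just inside the IVF range. The change was 1.59 (1.1 to 2.08, adjusted p = 2.453e-05), or 3.01-fold, in male Purkinje clones and 1.23 (0.74 to 1.72, adjusted p = 0.000439) in Sertoli clones.

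In females, Bmi1 was 3.30, 4.13, 4.27 and 4.06 in Purkinje clones, 3.77, 3.57, 3.31 and 3.46 in CA1 clones and 3.24, 2.88 and 3.44 in cumulus clones, against 2.31, 2.29 and 2.18 in IVF. All 11 clones exceeded the 3 IVF embryos. The change was 1.68 (1.08 to 2.28, adjusted p = 0.0002711), or 3.2-fold, in Purkinje clones and 1.26 (0.67 to 1.86, adjusted p = 0.004622) in CA1 clones. In cumulus clones, whose arrays belong to the same scanner set as IVF, it was 0.92 (0.29 to 1.56, adjusted p = 0.07798). In male CA1 clones it was 0.59 (0.10 to 1.08, adjusted p = 0.05917). The other Bmi1 probe lay on the floor on all 10 IVF arrays. It passed in male (0.69, adjusted p = 0.03314) and female Purkinje clones (0.85, adjusted p = 0.04164), but not in Sertoli (0.05, adjusted p = 0.9324) or female CA1 clones (0.02, adjusted p = 1), where 3 of 4 arrays were on the floor in each.

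Rnf2, the main ligase subunit, was 3.88, 4.75, 5.83 and 5.23 in male Purkinje clones and 5.09, 5.19, 4.76 and 4.97 in Sertoli clones, against 2.46 to 4.37 with a median of 2.88 in male IVF. All Sertoli clones and 3 of 4 Purkinje clones exceeded every male IVF embryo. The change was 1.64 (0.90 to 2.38, adjusted p = 0.001283) in Purkinje and 1.72 (0.98 to 2.46, adjusted p = 0.0009003) in Sertoli clones. Male CA1 clones, at 3.47, 3.54, 3.58 and 3.01, lay within the IVF range (0.12, -0.62 to 0.86, adjusted p = 0.8584). A second Rnf2 probe read 1.26, 1.74, 1.05 and 1.01 in male CA1 clones, against -0.94 to 0.65 in male IVF, and rose by 1.17 (adjusted p = 0.001655). By that probe Rnf2 was also higher in male Purkinje (1.80, adjusted p = 2.88e-05), Sertoli (0.84, adjusted p = 0.02363) and female Purkinje clones (0.96, adjusted p = 0.04178). Whether Rnf2 rose in male CA1 clones thus depends on the probe, while the rise in male Purkinje and Sertoli clones holds for both.

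Ring1, the alternative ligase subunit, moved the other way. It was -1.22, -1.89, -2.44 and -2.58 in male Purkinje clones, -2.26, -1.75, -2.02 and -2.05 in male CA1 clones and -1.46, -1.73, -1.13 and -1.06 in Sertoli clones, against -0.85 to 0.44 with a median of -0.14 in male IVF. All 12 male clones lay below all 7 male IVF embryos. Ring1 fell by 1.90 (adjusted p = 6.388e-05) in Purkinje, 1.89 (adjusted p = 3.8e-05) in CA1 and 1.22 (adjusted p = 0.004935) in Sertoli clones. In females it was -1.15, -2.04, -2.21 and -2.35 in Purkinje clones, against -1.82, -0.12 and -0.06 in IVF. The groups overlapped through the first IVF embryo, and the change of -1.27 (adjusted p = 0.0184) did not pass without Purkinje replicate 4 (-1.14, adjusted p = 0.05819) or IVF replicate 2 (-1.0, adjusted p = 0.1157) or 3 (-0.97, adjusted p = 0.1264). The change was -0.50 (adjusted p = 0.4369) in female CA1 and -0.61 (adjusted p = 0.4207) in cumulus clones. The other Ring1 probe lay on the floor on all IVF arrays and can show no fall.

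Cbx7, a reader of the PRC2 mark, and Kdm6b, the demethylase, passed in no clone group by limma without array weights. With array weights Cbx7 passed in male CA1 (-1.07, adjusted p = 0.02755) and female Purkinje clones (-1.29, adjusted p = 0.04749), and Kdm6b in Sertoli clones (-2.13, adjusted p = 0.03865). Array-median scaling (-1.80, adjusted p = 0.03389) and normexp (-1.73, adjusted p = 0.02467) also called Cbx7 in female Purkinje clones, and quantile normalization in male CA1 clones (-1.20, adjusted p = 0.03197). Cbx7 was 2.00, 1.53, 1.89 and 1.29 in female Purkinje clones and 1.48, 1.82 and 1.48 in cumulus clones, against 2.39, 2.81 and 3.41 in female IVF. Neither clone group overlapped the IVF embryos, and the changes were -1.20 (-2.28 to -0.11, adjusted p = 0.1112) and -1.28 (-2.43 to -0.12, adjusted p = 0.1874). In male CA1 clones the change of Cbx7 was -1.07 (-1.96 to -0.18, adjusted p = 0.06064). Kdm6b varied widely between embryos of a group, from the floor to 1.06 among 7 male IVF embryos and from the floor to 0.85 among 4 male CA1 clones. Its intervals were over 3 log2 units wide in each comparison with IVF, so only large changes could have been detected.

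**Figure D3:**
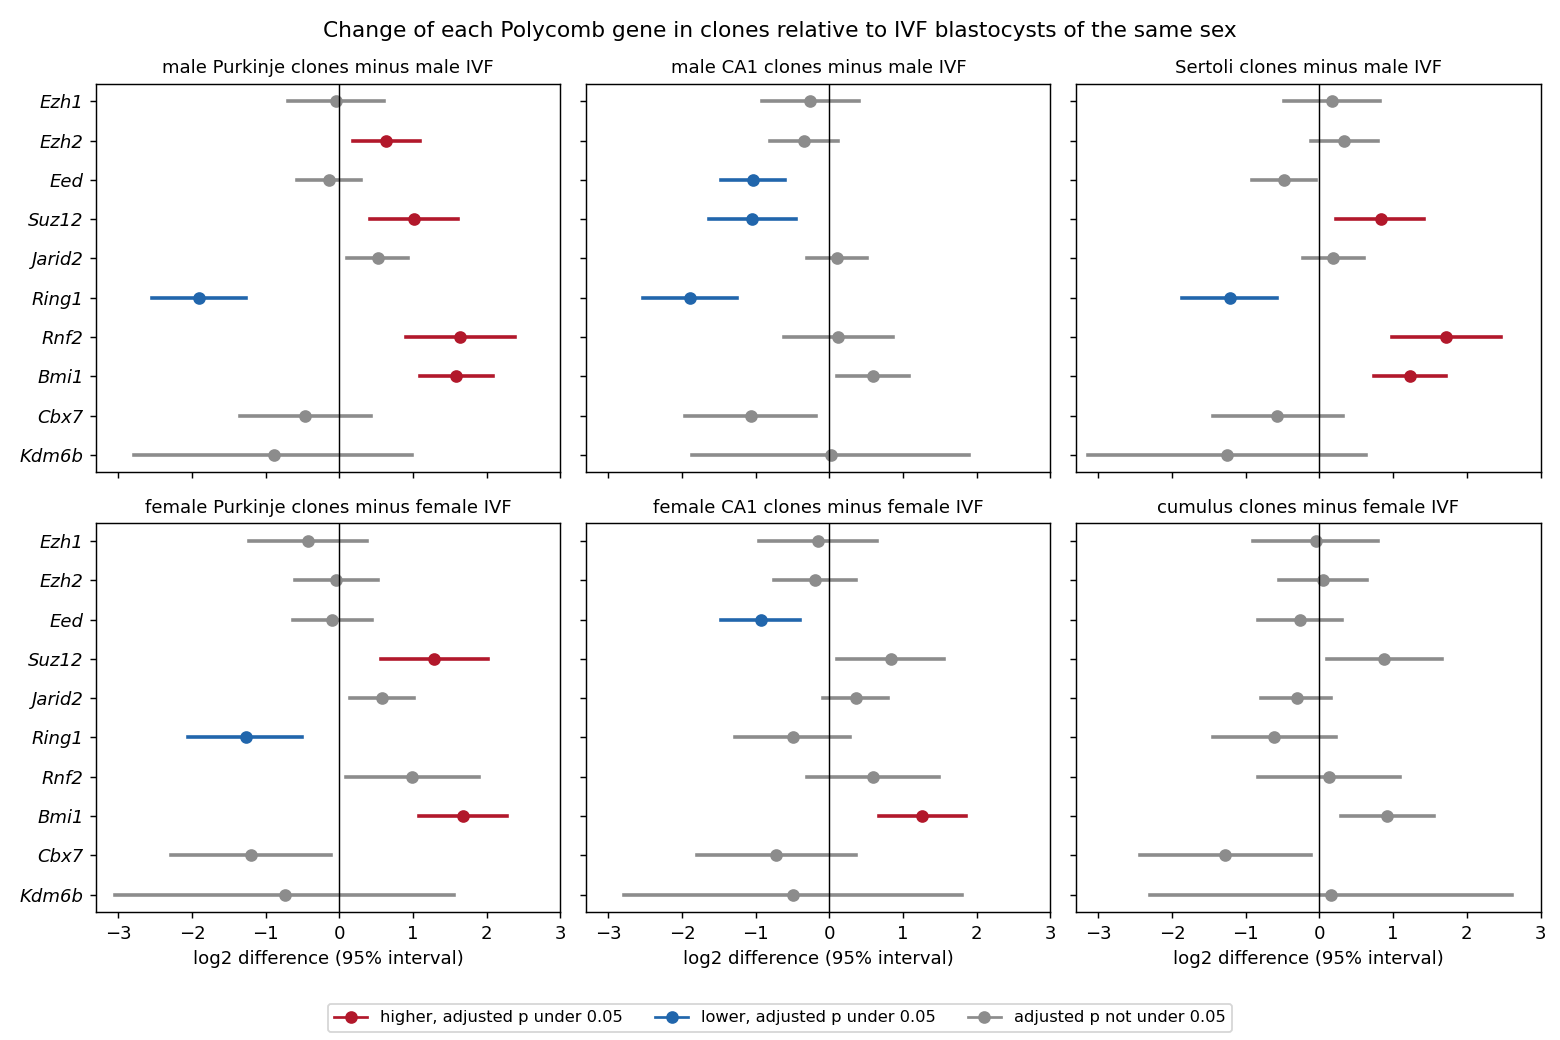
Difference in mean log2 level (point) with its 95% interval (line) for each Polycomb gene, clones minus IVF of the same sex, in 6 panels. Red and blue mark genes that were higher or lower at an adjusted p under 0.05, and grey the rest, and the intervals of Kdm6b are the widest in every panel.

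In Purkinje clones the levels of some of these genes moved with array brightness. The male replicates 1 to 4 had 75th percentiles of 659, 603, 368 and 230, and the female replicates 838, 354, 470 and 430. Suz12, Rnf2 and Ezh2 were lowest and Ring1 highest on the brighter arrays of both sexes: Suz12 was 5.55, 6.32 and 5.70 on the 3 arrays above 500, against 6.81 to 7.08 on the 5 dimmer ones. Kdm6b was -0.38, -0.43 and -2.36 on the brighter arrays, against -3.43 to -3.12 on the dimmer ones. Levels of Bmi1, Eed, Jarid2, Cbx7 and Ezh1 on the brighter and dimmer arrays overlapped. For Bmi1 the overlap was narrow, and its lowest level in each sex, 3.33 in males and 3.3 in females, was on a brighter array. The second Rnf2 probe did not follow this order, at 2.27, 1.75, 1.96 and 1.60 in males. Without the 5 dim arrays, Bmi1 (1.37, adjusted p = 0.005839) and Ring1 (-1.43, adjusted p = 0.01931) still passed in male Purkinje clones, while Ezh2 (0.45, adjusted p = 0.3623), Suz12 (0.45, adjusted p = 0.4053) and Rnf2 (1.03, adjusted p = 0.1021) did not. With array-median or quantile scaling and all arrays, Ezh2 (0.29 and 0.38) and Suz12 (0.67 and 0.51) did not pass in male Purkinje clones either. In females 1 Purkinje array remains, which is assumed to vary like the other groups. On it Bmi1 was 1.04 (adjusted p = 0.2361), Suz12 0.39 (adjusted p = 0.7887) and Ring1 -0.49 (adjusted p = 0.7731) relative to IVF, and with 1 array these p-values say little.

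**Figure D4:**
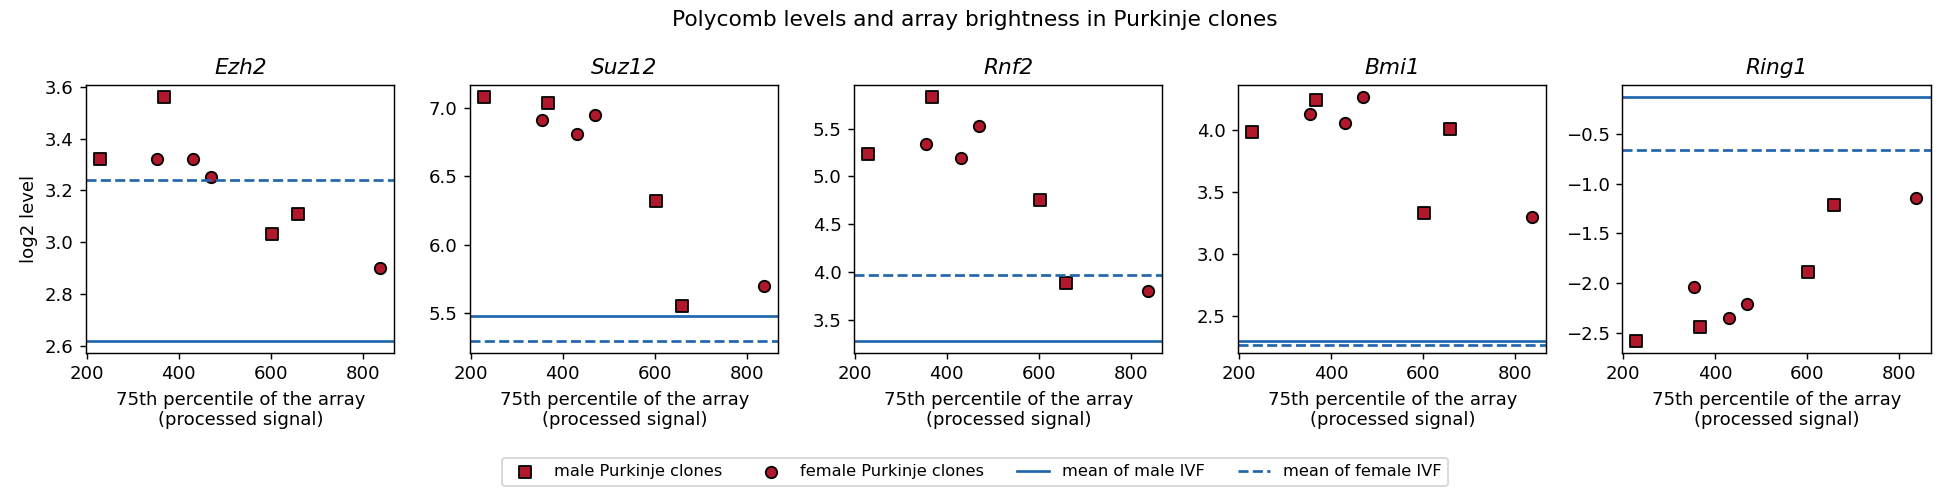
Level of 5 Polycomb genes on the 8 Purkinje arrays (vertical axes, log2; squares male, circles female) against the brightness of the array (horizontal axis, 75th percentile of its processed signal), with blue lines at the means of male (solid) and female (dashed) IVF. Bmi1 lies above both lines on every Purkinje array, and Suz12 is between 5.55 and 6.32 on the 3 arrays above 500.

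Clones of different donors were compared with each other, which for the neuronal and Sertoli arrays involves 1 scanner and software version but still separate slides. Male Purkinje clones had 5 members higher than male CA1 clones and 0 lower, where 18.5% of genes differed, 10.9% higher and 7.58% lower. These were Suz12 (2.06, adjusted p = 0.0001093), Rnf2 (1.52, adjusted p = 0.01018), Bmi1 (1.00, adjusted p = 0.01088), Ezh2 (0.98, adjusted p = 0.007832) and Eed (0.90, adjusted p = 0.009706). For each of the 5, every Purkinje clone exceeded every CA1 clone. The share of all genes without overlap was not counted, so this is a description. The difference for Ring1 was -0.01 (-0.73 to 0.71). Without the dim Purkinje arrays the count was 1. By the second probes the difference was 0.70 for Suz12 (adjusted p = 0.4824) and 0.63 for Rnf2 (adjusted p = 0.1646).

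In females, Eed was the 1 member called between Purkinje and CA1 clones (0.84, adjusted p = 0.02274), where 11% of genes differed. Its levels, 1.93, 2.04, 2.24 and 2.28 in Purkinje clones against 1.22, 1.36, 1.57 and 0.99 in CA1 clones, did not overlap. Male CA1 clones had lower Suz12 (-1.88, adjusted p = 0.0006023) and Rnf2 (-1.60, adjusted p = 0.01155) than Sertoli clones, where 11.8% of genes differed. By the second probes these differences were -0.09 for Suz12 and 0.33 for Rnf2. Male Purkinje and Sertoli clones differed in 0 members by limma, also at an unadjusted p under 0.05, and in 1 with array weights, where 4.79% of genes differed.

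Jarid2 was higher in both neuronal female clone groups than in cumulus clones by its brightest probe. It was 6.17, 6.66, 6.34 and 6.29 in female Purkinje clones and 6.64, 6.12, 5.70 and 6.10 in female CA1 clones, against 5.42, 5.59 and 5.39 in cumulus clones, with no overlap. The difference was 0.90 (adjusted p = 0.005044) for Purkinje minus cumulus, where 18.7% of genes differed, and 0.68 (adjusted p = 0.02846) for CA1 minus cumulus, where 19.3% differed. Jarid2 was the 1 member called in each of these comparisons, which also set 1 scanner against the other. By the other kept probe the differences were 0.10 (adjusted p = 0.9127) and 0.22 (adjusted p = 0.7044), so they rest on 1 probe.

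**Figure D5:**
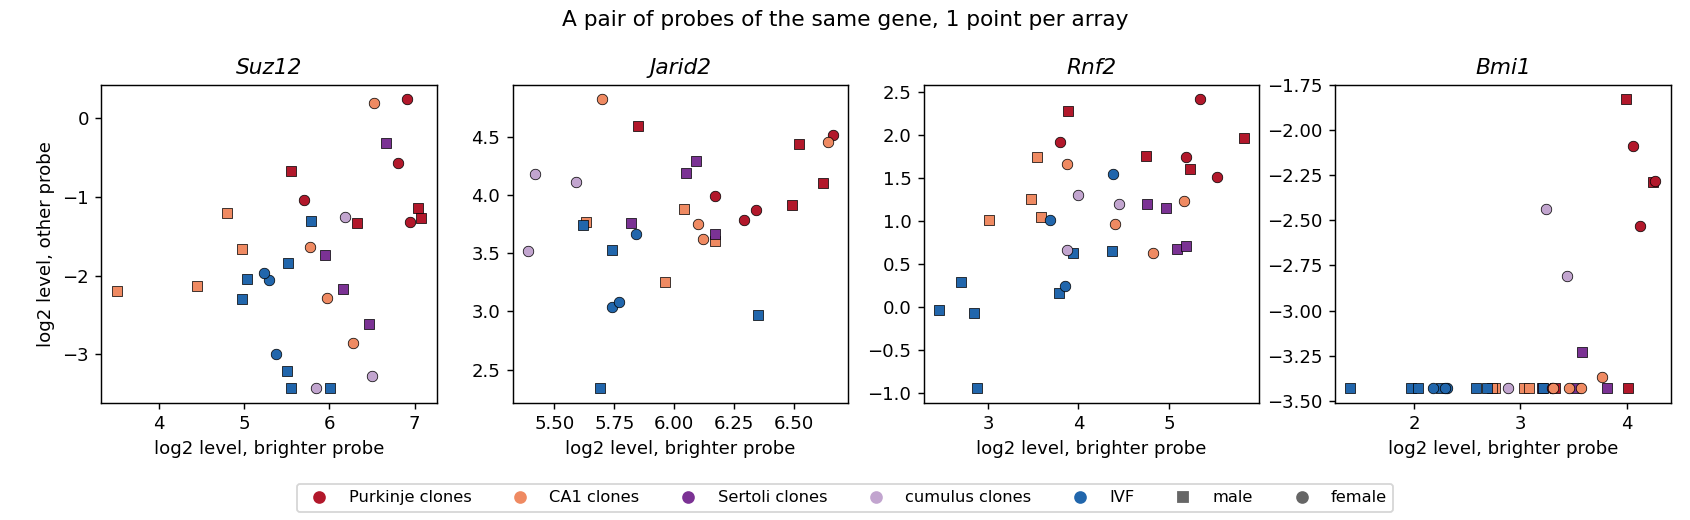
Levels of 4 Polycomb genes by the brighter probe (horizontal axis, log2) and by another probe of the gene (vertical axis, log2), with 1 point per array, colour by donor or IVF, squares for male and circles for female embryos. For Suz12 the male CA1 clones are lowest by the brighter probe but lie among the other groups by the second, and the second Bmi1 probe is on the floor on all IVF arrays.

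The sexes were compared with the same donor. In CA1 clones the change of Suz12 from IVF was lower in males than in females by 1.88 (-2.82 to -0.94, adjusted p = 0.03856), the 1 member of 10 that passed, where 1.07% of genes did. By the second Suz12 probe the same difference was 0.01 (adjusted p = 1). In Purkinje clones 0 members passed by limma, 0 also at an unadjusted p under 0.05, where 0.0569% of genes passed. Male and female IVF embryos differed in 0 members by limma, where 0.436% of genes differed. At an unadjusted p under 0.05 there was 1, Ezh2 (-0.62, adjusted p = 0.2753).

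Within the 7 male IVF embryos several members ran together. Ezh2 was 1.99, 2.06 and 2.01 in replicates 1, 6 and 7, against 2.91 to 3.24 in the 4 others. Cbx7 (1.54, 1.69 and 1.93) and Eed (1.73, 1.80 and 1.60) were also lowest in these 3, while Ring1 was highest in replicates 6 and 1, at 0.44 and 0.30. Replicates 1, 6 and 7 were also the dimmest male IVF arrays, with 75th percentiles of 976, 904 and 933, against 1011 to 1258. Replicates 6 and 7 lay on a slide with no other array. The part of brightness or slide in these levels was not tested. Over all 33 arrays, deviations from group means correlated at r = 0.78 for Suz12 with Rnf2, 0.74 for Ezh2 with Bmi1 and 0.70 for Ezh2 with Eed. Over the 8 group means the r values were 0.85, 0.39 and 0.59. The deviations share the array and its scaling, so these values are descriptions. The 3 genes whose 8 group means followed those of Suz12, by its brighter probe, most closely were Snu13 (r = 0.9927), Cpeb4 (r = 0.9873) and Prelid3b (r = 0.9782). They were picked as the highest r among all genes outside the lists, over only 8 means, so these r values are descriptions too.

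Wider lists of subunits gave these counts. Of 8 other PRC2 genes 0 passed by limma in either Purkinje group or female CA1 clones (at an unadjusted p under 0.05, 2 in male Purkinje, 0 in female Purkinje and 0 in female CA1 clones), and 1 passed in each of the other clone groups. Rbbp4, a histone-binding subunit, fell in male CA1 clones (-1.26, adjusted p = 0.001752). Aebp2, an accessory subunit, rose in Sertoli (0.90, adjusted p = 0.03607) and cumulus clones (2.34, adjusted p = 0.001582). The Sertoli call of Aebp2 is lost with array-median scaling, normexp, slide as a random block or only the groups compared. Its cumulus call is lost with only the groups compared, and the Rbbp4 call with the mean over a gene's probes. The median change of the PRC2 list ranged from -0.42 in male CA1 to 0.24 in female Purkinje clones, against medians over all genes of 0.01 and 0.08.

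Of 19 measured other PRC1 genes, 3 rose and 1 fell in male Purkinje clones, 2 and 2 in male CA1 clones, and 3 and 1 in Sertoli clones. In females 1 rose and 1 fell in Purkinje clones, 1 and 1 in CA1 clones, and 0 passed in cumulus clones by limma (6 at an unadjusted p under 0.05). The share higher was 15.8% in male Purkinje clones, against 18.3% of all genes, and 15.8% in Sertoli clones, against 15%. It was 5.26% in both neuronal female groups, against 13% in Purkinje and 8.41% in CA1 clones, and the 2 of 19 in male CA1 clones also lay below the 17.7% of all genes. The share lower was 5.26% in male Purkinje, Sertoli, female Purkinje and female CA1 clones, against 10.3%, 10.7%, 6.67% and 4.89% of all genes.

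Named after their values were seen, Sfmbt1, a PRC1-associated protein with MBT repeats, rose in male CA1 (1.04, adjusted p = 0.01006), Sertoli (2.17, adjusted p = 9.727e-06) and female CA1 clones (1.25, adjusted p = 0.02525). Array-median scaling loses both CA1 calls of Sfmbt1. The female CA1 call is also lost with the mean over a gene's probes or only the groups compared. Bcorl1, a corepressor of a variant PRC1, fell in CA1 clones of both sexes, by 2.15 in males (adjusted p = 6.084e-05) and 2.16 in females (adjusted p = 0.00198). Both CA1 falls had no overlap with IVF. Phc2, a PRC1 scaffold, fell in male Purkinje (-0.92), Sertoli (-0.95) and female Purkinje clones (-1.15), with overlap in each. All 3 Phc2 calls are lost with the replicate block or only the groups compared, and without the dim arrays the changes were -0.36 (adjusted p = 0.617) in male and -0.49 (adjusted p = 0.7807) in female Purkinje clones. Of 6 measured deubiquitinase and demethylase genes, Uty and Usp16 rose in male Purkinje and Bap1 in male CA1 clones, and 0 passed by limma in the 4 other clone groups (at an unadjusted p under 0.05, 1 each in Sertoli and cumulus clones). The Uty call (0.98) held in 11 of 45 other settings and was 0.51 (adjusted p = 0.5613) without the dim arrays. The Usp16 call (0.85) is lost with array-median scaling (0.50), quantile normalization (0.45) or normexp, and the Bap1 call (0.65) with array-median scaling (0.44).

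Developmental genes known as Polycomb targets in mouse embryonic stem cells were measured for 45 of 80. Of these, 7 rose and 6 fell in male Purkinje clones, 5 and 9 in male CA1, 5 and 8 in Sertoli, 4 and 6 in female Purkinje, 3 and 5 in female CA1, and 0 and 4 in cumulus clones. The shares higher (15.6%, 11.1%, 11.1%, 8.89%, 6.67% and 0% in that order) lay below those of all genes (18.3%, 17.7%, 15%, 13%, 8.41% and 1.95%). The shares lower (13.3%, 20%, 17.8%, 13.3%, 11.1% and 8.89%) lay above them (10.3%, 13.3%, 10.7%, 6.67%, 4.89% and 3.35%). Each share rests on 0 to 9 of 45 genes, and comparisons of 1 sex share their IVF embryos. The shares are therefore descriptions, and their distance from those of all genes was not tested. The list medians lay between -0.11 and 0, against medians over all genes of -0.02 to 0.08. Hand1, a trophoblast transcription factor, lay on the floor in all 7 male IVF embryos. It averaged 0.47 ± 0.71 in male Purkinje, 0.49 ± 1.09 in male CA1 and -0.34 ± 0.78 in Sertoli clones (SD, n = 4 each), with an adjusted p of 9.378e-05, 5.066e-05 and 0.001033. It was 1.55 ± 0.97 in female CA1 (n = 4) and 0.51 ± 1.87 in female Purkinje clones (n = 4), against -3.28 ± 0.26 in female IVF (n = 3), and both passed. In cumulus clones, whose arrays shared scanner and software version with IVF, Hand1 was not called. Hand1 was called higher in female Purkinje and female CA1 clones than in cumulus clones. Those comparisons also set 1 scanner against the other, and the part of the scanner was not tested.

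Foxa2, an endoderm factor, was on the floor in all 4 male Purkinje, all 4 Sertoli and all 4 female Purkinje clones, against 0.32 ± 0.84 in male (n = 7) and 0.93 ± 0.29 in female IVF (n = 3). It was lower in all 6 clone groups. Sox7, a primitive endoderm factor, was on the floor in all 4 male CA1 and all 4 female CA1 clones, against -0.01 ± 2.04 in male and 1.20 ± 1.84 in female IVF. Gata4, also a primitive endoderm marker, was called lower in all 6 clone groups. Gata6, a further marker of this kind, was called higher in male Purkinje (0.77) and Sertoli clones (0.72). Both Gata6 calls are lost with array-median scaling or normexp. The summed signal of the 8 primitive endoderm markers was 137 to 253 in male IVF. It was 211 to 275 in male Purkinje, 135 to 172 in male CA1 and 167 to 213 in Sertoli clones. In females it was 171 to 298 in Purkinje, 172 to 265 in CA1 and 149 to 221 in cumulus clones. Female IVF gave 190 to 252. Dab2 (6.75) and Gata6 (5.54) had the highest means of the 8 in male IVF and weigh most in this sum. Lama1 averaged 2.86 in male IVF, against -0.17 in male Purkinje, -0.3 in male CA1 and -0.22 in Sertoli clones. In females it was 3.31 in IVF, against -1.77 in Purkinje, -0.83 in CA1 and 1.49 in cumulus clones. Mean Amn was also lower in every clone group than in IVF of the same sex, while mean Dab2 was higher in both Purkinje groups. The part of cell type in these changes was not tested. The Gata4 call in cumulus clones held in 22 of 45 other settings. After normexp background correction the change of Gata4 in male Purkinje clones had the opposite sign. Without the dim Purkinje arrays 20 of the 62 calls of this list did not pass, 11 of the 32 of the imprinted list, 6 of 16 of the PRC1 list and 0 of 3 of the PRC2 list.

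Genes with a maternal imprint of H3K27 methylation were measured for 18 of 21, and 9 rose and 0 fell in male Purkinje clones, 4 and 1 in male CA1, 8 and 1 in Sertoli, 2 and 1 in female Purkinje, 3 and 0 in female CA1 and 3 and 0 in cumulus clones. The shares higher were 50%, 22.2%, 44.4%, 11.1%, 16.7% and 16.7% in that order, against 18.3%, 17.7%, 15%, 13%, 8.41% and 1.95% of all genes, so female Purkinje clones lay below the background. The median change of the list was 0.99, 0.52, 0.83, 0.67, 0.81 and 0.61 in that order, against medians over all genes of -0.02 to 0.08. Named after their values were seen, the amino acid transporters Slc38a1 and Slc38a4 were 2 of the 9, at 1.83 (adjusted p = 1.257e-06) and 1.57 (adjusted p = 5.05e-05) in male Purkinje clones.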

How the data were processed

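Expression was measured on 33 one-colour Agilent 4x44K arrays, 1 per blastocyst. Per the file headers, the deposited scanner output gives a background-subtracted intensity for every spot. Agilent Feature Extraction 10.5.1 is named in the submitters' processing notes, and the headers give 10.5.1.1 for 20 arrays and 9.5.3.1 for 13. The authors' deposited value table holds log2 values, which match the processed signal floored at 1, scaled to the 75th percentile and centred per probe by sex (median absolute difference 0.0123 for males and 0.0051 for females). Its column medians run from -0.591 to 0.766, and it served as an alternative.

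Outlier-flagged and control spots were left out. Processed signals were scaled to the 75th percentile of their array, floored at 0.0925 of it and put on the log2 scale. Of the kept values, 22.2% lie on the floor. Gene names absent from some files came from the other arrays by probe and were updated by accession (22944 probes), symbol (6664) or synonym (3108), while 8458 probes stayed as labelled. A probe was kept if well above background on 50% of the arrays of a group, above the floor on 3 arrays and with 2 values per group, which left 22812 probes. The brightest probe stood for each of 15808 genes.

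Group means were fitted with lmFit and eBayes of limma 3.58.1 (R 4.3.3) over all arrays (25 residual degrees of freedom), with Benjamini-Hochberg adjustment over all genes and calls at an adjusted p under 0.05. Every adjusted p is limma's. Intervals cover 95% by the same fit. The fit was tested on simulated data with known changes. The number of arrays limits the precision.

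Named were the 10 members, wider-list subunits called in at least 4 of 6 clone groups, the 4 target genes with the largest called changes each way per comparison, from which examples are given, and the 3 genes most like the member with the most calls and the widest range. Some genes that this rule names are not reported here. Members and lists were chosen with earlier results of these data known. Normexp used median rather than mean spot signals, which some files lack. Same-numbered samples of different groups deviated with r = -0.236 to 0.318 (median -0.0115, 99 pairs), so the numbers do not pair them. Alternatives are in the closing section.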

Additional observations from a re-analysis of the deposited data

Results flagged for a closer look

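Of 60 member and group pairs with 4 to 10 arrays, 8 had an array whose gap to the nearest other was large for the group's range, where chance gives about 1 in 20. Suz12 was 5.70 in female Purkinje replicate 1, against 6.81 for the next, and Ezh2 was 2.90 in the same embryo, against 3.25. That array is the brightest of its group. Jarid2 was 6.35 in male IVF replicate 2, against 5.74 for the next of 4 measured arrays. Cbx7 was 2.21 in Sertoli replicate 2, against 1.76. Ezh1 was -1.82 both in male IVF replicate 5, against -3.14, and in Sertoli replicate 2, against -3.21. In male CA1 replicate 1 it was -3.25 and Kdm6b was -1.06 in female CA1 replicate 3, each with the other arrays on the floor, where the gap is the entire range by construction, so these 2 of the 8 do not count against chance. The change of Suz12 in CA1 clones differed between the sexes by -1.88 by the test of the difference itself, a value of the brighter probe alone.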

How the results depend on the processing

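Of 60 member changes against IVF, 17 were called. Signs turned under an alternative, single left-out replicates aside, 5 times for a called change, 1 time for a change that passed under the alternative, and 37 times where neither value passed. Those where a value passed were Ezh1 in male Purkinje clones after normexp (1.07), Ring1 by its floored probe (0.08 in male Purkinje, 0.01 in male CA1, 0.15 in Sertoli and 0.08 in female Purkinje clones) and Suz12 in male CA1 clones by its other probe (0.71), and the cause was not tested. Among the rest, without the dim arrays Rnf2 in female Purkinje clones was -0.18 against 0.99, Cbx7 in male Purkinje clones 0.26 against -0.46 and Kdm6b there 0.56 against -0.89, and Suz12 in cumulus clones was -0.31 by its other probe against 0.88. The 5 calls of male Purkinje clones became 3 with array-median scaling, quantile normalization or normexp, and 2 without the dim arrays. The 3 of male CA1 clones became 5 with array weights. The 3 of female Purkinje clones became 1 with normexp, 0 without dim arrays (1 array left) and 6 with weights. The 2 of female CA1 clones became 0 with normexp and 1 with the probe mean or only the groups compared. The 0 of cumulus clones became 1 with quantile normalization or weights. Between male Purkinje and CA1 clones 5 became 2 with array-median scaling or normexp and 1 without dim arrays. Between female Purkinje and CA1 clones 1 became 0 with normexp or without dim arrays and 2 with weights. Between male Purkinje and Sertoli clones 0 became 1 with weights. Between male CA1 and Sertoli clones 2 became 0 with normexp or the probe mean and 6 with weights. Between female Purkinje and cumulus clones 1 became 0 with quantile normalization, normexp or without dim arrays and 3 with weights. Between female CA1 and cumulus clones 1 became 0 with array-median scaling, normexp, the authors' values, the probe mean or only the groups compared, and 2 with weights. The Suz12 difference between the sexes in CA1 clones went to 0 calls with normexp, the authors' values, a floor at 1, the probe mean, slide as a random block or the replicate block.

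Leaving out single replicates gave 3 to 6 calls in male Purkinje, 2 to 4 in male CA1, 3 to 4 in Sertoli, 2 to 5 in female Purkinje, 1 to 2 in female CA1 and 0 in cumulus clones. Between donors it gave 4 to 6 for male Purkinje and CA1, 0 to 1 for female Purkinje and CA1, 1 to 2 for male CA1 and Sertoli, 1 to 3 for female Purkinje and cumulus, and 0 to 1 for female CA1 and cumulus clones and for the CA1 difference between the sexes. With the replicate block, Ezh2 in male Purkinje clones was 0.49 (adjusted p = 0.1308) and Suz12 in Sertoli clones 0.78 (adjusted p = 0.1161), and it changed no other member's call against IVF. Slide as a fixed block could be fitted only for male against female IVF, where 0 members passed. Array-median scaling gave a median change of all genes of -0.14 against 0.07 in male and -0.33 against 0.08 in female Purkinje clones. The share of higher genes among those called was then 29.2% against 63.9% in male Purkinje, 39.5% against 57.1% in male CA1, 41.9% against 58.3% in Sertoli, 14.2% against 66.2% in female Purkinje, 51.1% against 63.2% in female CA1 and 47.2% against 36.8% in cumulus clones. With quantile normalization it was 46.9% in male Purkinje, 46.3% in Sertoli, 46% in female Purkinje and 43.1% in female CA1 clones, and with normexp 76.5% in female Purkinje clones. Over all genes, calls numbered 1684 against 4514 in male and 309 against 3117 in female Purkinje clones without the dim arrays. Normexp gave 1960 against 4069 in Sertoli, 3085 against 4892 in male CA1, 614 against 2102 in female CA1 and 196 against 837 in cumulus clones. Fitting only the groups compared gave 1825 in female Purkinje, 759 in female CA1 and 229 in cumulus clones, where array-median scaling gave 502 and weights 1309.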
